A study of Homo sapiens with 3 samples.

Results

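The enzymes and binding proteins of RNA modification were described gene by gene in 3 RNA-seq libraries of MIAPaCa-2, an established cell line from a human pancreatic carcinoma. They were taken by name: 53 symbols were listed, and 52 of them had a row in the table of 14949 genes. IGF2BP1 had no row in the table used here. Of the 52 genes, 23 belong to the m6A system and 29 act on other RNA marks.

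The study examined METTL3 and the kinase PLK1, which cells need for mitosis, in pancreatic cancer. All 3 libraries came from cells that carried a short hairpin RNA (sh). The sh-CTL library came from cells with a control hairpin and is labelled as untreated, with no vehicle stated. The sh-METTL3 library came from cells with a hairpin against METTL3, also untreated. The library written here as PLK1i came from sh-CTL cells given NMS-P937, a small-molecule inhibitor of PLK1, at 80 nM for 24 h. The hairpin lines are stable lines, and whether each is 1 clone is not stated. Every group held 1 library, so no difference below has a replicate check and no p-value was computed.

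N6-methyladenosine (m6A) is the most common internal mark of messenger RNA. Writers place it, erasers remove it, and readers bind it and direct the splicing, export, translation or decay of the transcript. Other enzymes methylate cytosine (m5C), adenosine on its ring at another atom (m1A) or guanosine (m7G), isomerise uridine to pseudouridine, acetylate cytidine (ac4C) or deaminate adenosine to inosine. Many of these marks sit on transfer RNA (tRNA) and ribosomal RNA (rRNA).

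Values are normalized counts, that is, reads divided by the size factor of the library. A change is the difference of log2(normalized count + 1) from sh-CTL, with the 95% exact Clopper-Pearson interval of the ratio of reads in brackets. The change of a ratio between partner genes was taken from reads, without the added 1. Its brackets hold the 95% conditional exact interval of the odds ratio of those reads. Both kinds of interval cover counting error only. A gene is said here to have risen or fallen where its change was at least 0.25 in size and its interval excluded 0. Reads in the listed genes came to 37449259, 46944920 and 47727541 in sh-CTL, sh-METTL3 and PLK1i, and the 52 RNA-modifying genes took 0.526%, 0.514% and 0.545% of them. Their read numbers ran from 303 for NSUN6 to 48882 for YBX1 in sh-CTL. A total of 49 of the 52 had a mean normalized count of at least 500, and ZCCHC4, NSUN3 and NSUN6 lay below it. The epithelial keratin KRT8 had 82611, 124197 and 97483 reads in the same order. VIM, a mesenchymal gene, had 209892, 199813 and 267673 reads, and the collagen gene COL1A1 had 34, 6 and 36. These marker reads are not divided by the size factors, so they also carry the depth of each library. The part of these markers in the results was not tested. The epithelial genes EPCAM and CDH1, the acinar and endocrine genes PRSS1, CPA1 and INS, and the leukocyte and endothelial genes PTPRC and PECAM1 had no row. In such bulk libraries, fewer cells of a type and less RNA per cell cannot be told apart.

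In sh-METTL3, METTL3 was the only gene of the 52 past 2-fold, against 6.37% of all genes. By the smaller rule 8 of the 52 fell and 1 rose. The genes that fell were METTL3, TRDMT1, NSUN5, METTL1, IGF2BP2, TRMT6, TRMT61A and ADARB1, and METTL4 was the gene that rose. Among all genes 15.1% fell and 15.1% rose. Among the more abundant genes, those at 500 or above, 14.3% fell and 10.4% rose, and all 9 genes named here lay in that range. In PLK1i none of the 52 passed 2-fold, against 2.52% of all genes and 10 of the 9074 more abundant ones. There TRDMT1, NSUN3 and PCIF1 fell and TRMT61A, NSUN2 and CBLL1 rose, 3 of 52 each way. The shares of all genes were 10.1% lower and 9.09% higher, and among the more abundant genes they were 7.52% and 7.15%. In that range 2 genes of the set fell and 3 rose. The share of the set that fell in sh-METTL3 was close to that of the table, and the remaining shares were close to it or lower.

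**Figure D1:**
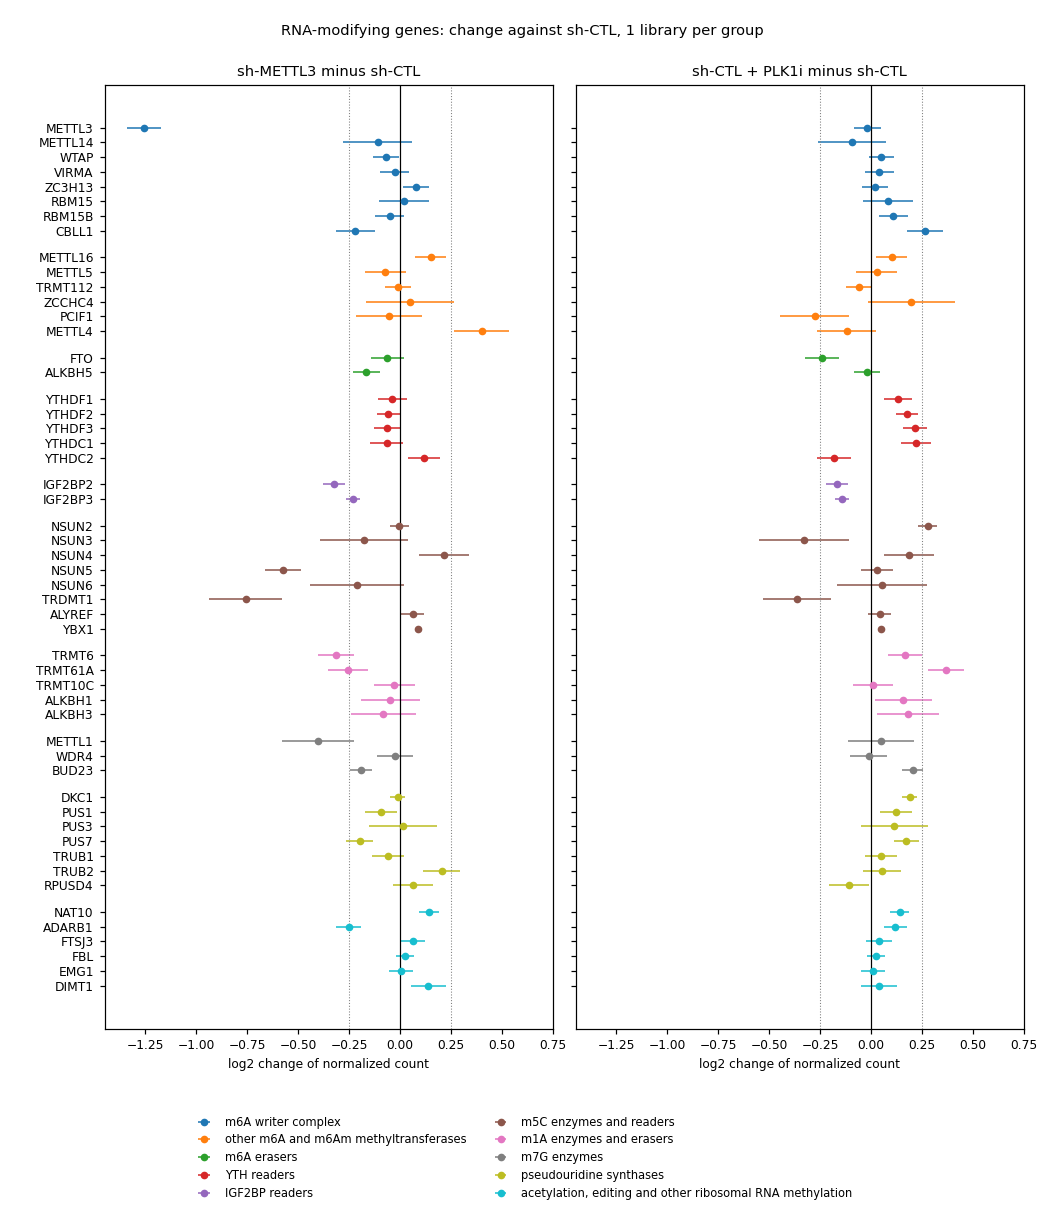
Change of each RNA-modifying gene against sh-CTL (x axis, log2 of the normalized count), in sh-METTL3 on the left and in PLK1i on the right. Points are single libraries coloured by role, bars are 95% counting intervals, and the dotted lines mark a change of 0.25 in size. METTL3 on the left, at -1.25, is the only point past -1, and on the right all 52 points lie between -0.36 and 0.36.

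The m6A writer complex came first in the order of roles. METTL3, its catalytic subunit, had normalized counts of 3939, 1651 and 3888 in sh-CTL, sh-METTL3 and PLK1i. The low count was the one in the library labelled sh-METTL3, where the level was 41.9% of control and the change -1.25 (-1.34 to -1.17). After the inhibitor METTL3 changed by -0.02 (-0.08 to 0.05). METTL3 (ENSG00000165819) lies on chromosome 14 at 21966277 to 21979484 in GRCh37, and 6.62% of its exon length overlaps TOX4 on the opposite strand.

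The other subunits of the complex stayed close to their sh-CTL level while METTL3 was low. METTL14, the RNA-binding partner of METTL3, had normalized counts of 636, 589 and 596 in sh-CTL, sh-METTL3 and PLK1i. Its change in sh-METTL3 was -0.11 (-0.28 to 0.06), which is within counting error. WTAP, the adaptor that holds the heterodimer at nuclear speckles, stood at 4238, 4033 and 4387, a change of -0.07 in sh-METTL3. The scaffold VIRMA changed by -0.03 and ZC3H13, which keeps the complex in the nucleus, by 0.08. RBM15 and RBM15B, which bring the complex to its RNAs, changed by 0.02 and -0.05. The subunit farthest from 0 was CBLL1, a ubiquitin ligase bound to the complex. CBLL1 had 1987, 1705 and 2383, a change of -0.22 (-0.32 to -0.12) in sh-METTL3, under the rule of 0.25, and a rise of 0.26 (0.17 to 0.35) in PLK1i. Under upper-quartile scaling that rise fell short of 0.25.

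The balance within the core of the complex shifted with METTL3. Per kb of canonical transcript, METTL3 was 20.8, 9.41 and 21.9 times the level of METTL14 in sh-CTL, sh-METTL3 and PLK1i. The change of the ratio of reads in sh-METTL3 was -1.14 (-1.33 to -0.96), and in PLK1i it was 0.07 (-0.11 to 0.25). WTAP was 21.0, 21.6 and 23.2 times METTL14 on the same scale. METTL14 was thus the scarcest transcript of the complex in each library, even in sh-METTL3. Such levels depend on the transcript length taken as canonical, which is 6642 bases for METTL14 and 1980 for METTL3.

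A group of m6A and m6Am methyltransferases acts apart from this complex. METTL4, which methylates U2 small nuclear RNA, had normalized counts of 848, 1119 and 781. It rose in sh-METTL3, by 0.40 (0.27 to 0.53), and changed by -0.12 in PLK1i. PCIF1, which marks the first adenosine after the cap, had 660, 635 and 545. It changed by -0.06 in sh-METTL3 and fell in PLK1i, with a change of -0.28 (-0.44 to -0.11). METTL16, which acts on U6 small nuclear RNA and on a transcript for S-adenosylmethionine synthesis, changed by 0.15 (0.08 to 0.23) and 0.10 (0.03 to 0.18). The rRNA methyltransferases METTL5 and ZCCHC4 and the METTL5 cofactor TRMT112 stayed within counting error in both comparisons.

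The erasers FTO and ALKBH5 lay below sh-CTL in both comparisons without passing the rule. FTO had 2726, 2611 and 2305, a change of -0.06 in sh-METTL3 and -0.24 (-0.32 to -0.16) in PLK1i. The FTO value in PLK1i passed 0.25 under library totals and under upper-quartile scaling. ALKBH5 had 4084, 3641 and 4022, a change of -0.17 (-0.23 to -0.10) in sh-METTL3 and -0.02 in PLK1i. Per kb, ALKBH5 was 5.49, 5.11 and 6.39 times FTO in the 3 libraries.

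Among the readers of the YTH family, YTHDF1, YTHDF2 and YTHDF3 bind m6A in the cytoplasm and YTHDC1 binds it in the nucleus. In PLK1i these 4 genes changed by 0.13, 0.18, 0.22 and 0.22, each beyond counting error, each under 0.25 and each above 0 under every scaling tried. Their changes in sh-METTL3 lay between -0.07 and -0.04. YTHDF2, the reader linked to decay of marked transcripts, had normalized counts of 5296, 5087 and 5986. YTHDC2, a helicase best known from germ cells, had 2570, 2785 and 2266 and moved apart from the other 4, by 0.12 (0.04 to 0.20) in sh-METTL3 and -0.18 (-0.27 to -0.10) in PLK1i.

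The IGF2BP proteins are readers that stabilise their targets. IGF2BP3 was the most abundant transcript of the m6A system in reads, with normalized counts of 14674, 12494 and 13305. Its change was -0.23 (-0.27 to -0.20) with METTL3 low and -0.14 (-0.18 to -0.11) with the inhibitor. IGF2BP2 had 6346, 5062 and 5649. It fell in sh-METTL3, with a change of -0.33 (-0.38 to -0.27), and its change in PLK1i was -0.17 (-0.22 to -0.11). Both readers were thus highest in sh-CTL. Per kb, IGF2BP3 was 2.32, 2.47 and 2.36 times IGF2BP2 in the same order of libraries. Exons of MALSU1 on the opposite strand cover 17.8% of the exon length of IGF2BP3.

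**Figure D2:**
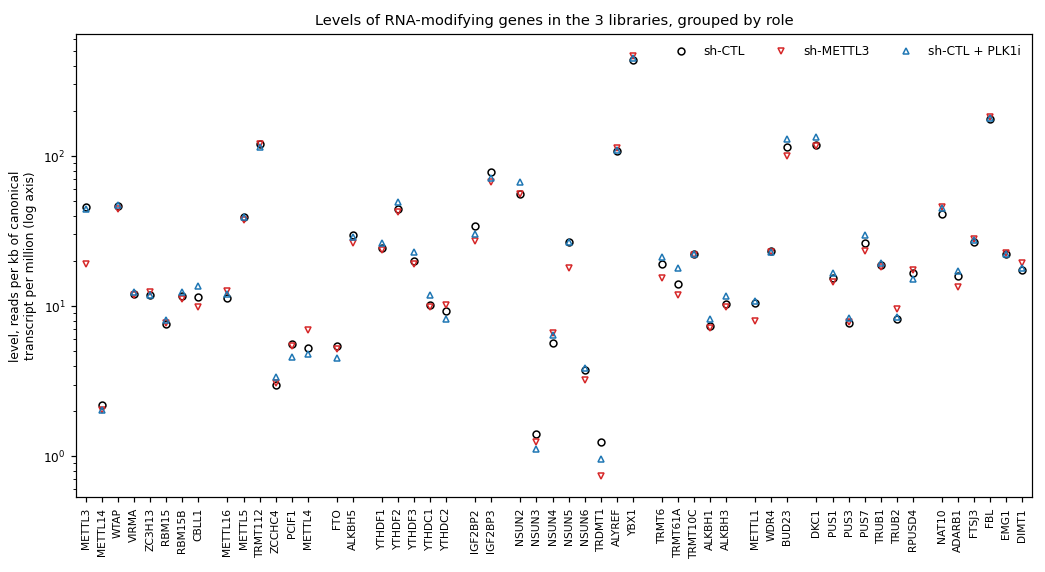
Level of each RNA-modifying gene in the 3 libraries, in reads per kb of canonical transcript scaled to the reads of the library (y axis, log scale), ordered by role along the x axis. Circles are sh-CTL, downward triangles sh-METTL3 and upward triangles PLK1i, 1 library each; the levels in sh-CTL run from 1.24 for TRDMT1 to 438 for YBX1, and the separation of the 3 symbols is widest at METTL3.

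The m5C enzymes held the largest change after METTL3 itself. TRDMT1, which methylates tRNA, had normalized counts of 697, 412 and 541 in sh-CTL, sh-METTL3 and PLK1i. TRDMT1 fell in both libraries, with changes of -0.76 (-0.94 to -0.58) and -0.36 (-0.53 to -0.20), and it was the only gene of the 52 that fell in both. Since both comparisons use the sh-CTL library, they do not show this independently. NSUN5, which methylates the large-subunit rRNA, had 2709, 1819 and 2759. NSUN5 fell to 67.1% of its control level in sh-METTL3, with a change of -0.57 (-0.66 to -0.49), and changed by 0.03 (-0.05 to 0.11) in PLK1i.

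NSUN2, the main m5C enzyme of messenger RNA and of many tRNAs, had 7491, 7474 and 9080. Its change in sh-METTL3 was within counting error (-0.05 to 0.04), and it rose in PLK1i by 0.28 (0.23 to 0.32), or 0.24 with the median of its chromosomal neighbours subtracted, which is short of the rule. NSUN3 and NSUN4 act in mitochondria. NSUN3 had 393, 348 and 313, a change of -0.18 (-0.39 to 0.04) in sh-METTL3 and a fall in PLK1i at -0.33 (-0.55 to -0.11). NSUN4 changed by 0.22 (0.09 to 0.34) and 0.19 (0.06 to 0.31). NSUN6, a tRNA enzyme with few reads, changed by -0.21 (-0.44 to 0.02) in sh-METTL3 and 0.05 in PLK1i. The m5C readers ALYREF, an export adaptor, and YBX1, a cold-shock protein, changed by 0.06 and 0.09 in sh-METTL3 and by 0.04 and 0.05 in PLK1i.

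The m1A genes lay on the 2 sides of sh-CTL in the 2 libraries. TRMT6 and TRMT61A are the RNA-binding and the catalytic subunit of the tRNA m1A methyltransferase. TRMT6 had normalized counts of 2430, 1957 and 2726. It fell in sh-METTL3, with a change of -0.31 (-0.40 to -0.22), and changed by 0.17 (0.08 to 0.25) in PLK1i. TRMT61A had 1974, 1654 and 2543, a change of -0.26 (-0.35 to -0.16) in sh-METTL3 and a rise of 0.36 (0.28 to 0.45) in PLK1i. Under upper-quartile scaling the fall of TRMT61A did not reach 0.25 in size. The mitochondrial enzyme TRMT10C and the erasers ALKBH1 and ALKBH3 lay between -0.08 and -0.03 in sh-METTL3, within counting error, and between 0.01 and 0.18 in PLK1i. All 5 genes were below 0 in sh-METTL3 and all 5 above 0 in PLK1i, where TRMT10C turned to below 0 under library totals and upper-quartile scaling.

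The promoters of TRMT6 and TRMT61A are shown because these 2 genes encode subunits of the same enzyme and moved in the same direction in each comparison. Their direction was also that of TRMT10C, ALKBH1 and ALKBH3, whose changes in sh-METTL3 were within counting error. Each sequence is the 250 bases before the RefSeq start, on the strand of the gene in GRCh38.p14, at chr20:5950534-5950783 on the minus strand for TRMT6 and at chr14:103528946-103529195 on the plus strand for TRMT61A. Capitals mark the letters CCGGAAG, the core that ETS transcription factors bind, or their reverse complement CTTCCGG. In TRMT6 the 2 readings overlap in 10 bases from 47 to 38 before the start, and in TRMT61A the motif runs from 8 to 2 before it.
TRMT6: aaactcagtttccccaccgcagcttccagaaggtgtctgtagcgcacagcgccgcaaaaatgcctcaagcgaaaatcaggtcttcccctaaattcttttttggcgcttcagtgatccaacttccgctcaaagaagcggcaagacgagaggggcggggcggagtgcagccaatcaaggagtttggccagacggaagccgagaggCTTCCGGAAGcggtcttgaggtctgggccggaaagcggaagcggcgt
TRMT61A: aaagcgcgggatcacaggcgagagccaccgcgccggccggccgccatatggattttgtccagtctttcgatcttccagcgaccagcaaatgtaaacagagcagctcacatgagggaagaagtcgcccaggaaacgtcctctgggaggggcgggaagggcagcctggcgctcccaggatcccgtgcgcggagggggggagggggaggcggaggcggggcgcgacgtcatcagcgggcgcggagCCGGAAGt

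On either strand, CCGGAAG occurred in 8.52% of the 35116 RefSeq promoters of this length. The next shares are of genes, each counted once where any of its promoters matched. They were 19.3% of the 10592 genes that had both a row in the table and a promoter. Of the RNA-modifying genes, 47 had a promoter and 17 of these matched, or 36.2%. The palindrome CACGTG, an E-box, occurred in 6.34%, 11.2% and 12.8% in the same order. All of the m1A genes, TRMT10C, ALKBH1 and ALKBH3 included, held CCGGAAG or its reverse complement, so it does not set TRMT6 and TRMT61A apart from them. Both motifs were chosen after the sequences had been seen. A match of letters describes the sequence and is no evidence of binding.

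Among the m7G genes, METTL1 is the catalytic subunit for tRNA and WDR4 its partner. METTL1 had 630, 476 and 651, and it fell in sh-METTL3 with a change of -0.40 (-0.58 to -0.23). WDR4 had 2132, 2094 and 2114, a change of -0.03 (-0.12 to 0.06). The exons of METTL1 share 5.5% of their length with CYP27B1 on the same strand, so a part of its reads is uncertain. BUD23, which methylates small-subunit rRNA with TRMT112, changed by -0.19 (-0.25 to -0.14) in sh-METTL3 and 0.20 (0.15 to 0.26) in PLK1i.

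Partner genes were compared as ratios within a library. The ratio of METTL1 to WDR4 changed by -0.38 (-0.58 to -0.18) in sh-METTL3 and by 0.06 (-0.13 to 0.25) in PLK1i. The ratio of TRMT6 to TRMT61A differed little in sh-METTL3, at -0.06 (-0.19 to 0.07), and was lower in PLK1i, at -0.20 (-0.32 to -0.08). BUD23 to TRMT112 moved by -0.18 (-0.27 to -0.10) and 0.26 (0.18 to 0.34). METTL5 to TRMT112 stayed within counting error in both. Exons on the opposite strand cover 25.8% of the exon length of TRMT112 (ESRRA) and 20.0% of that of METTL5 (SSB). Ratios to TRMT112 thus depend on how strand was counted. RNMT, the enzyme of the m7G cap, and its activator RAMAC come from the wider list described further on. Their ratio moved by 0.84 (0.68 to 1.01) in sh-METTL3 and -0.23 (-0.39 to -0.07) in PLK1i.

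**Figure D3:**
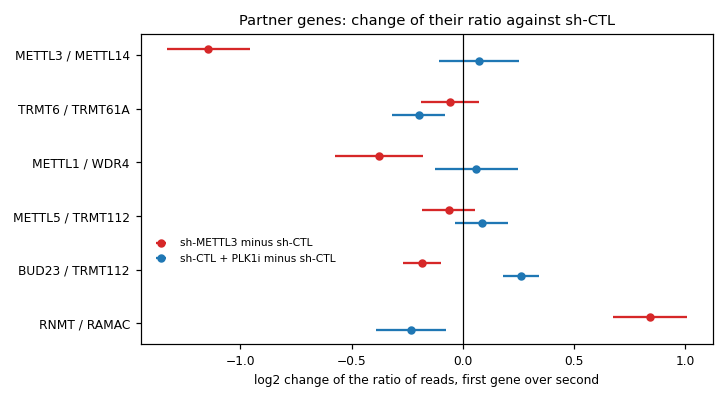
Change against sh-CTL of the ratio of reads of 6 partner pairs (x axis, log2), in sh-METTL3 in red and PLK1i in blue, with 95% counting intervals. METTL3 to METTL14 lies at -1.14 in sh-METTL3 and RNMT to RAMAC at 0.84, and METTL5 to TRMT112 crosses 0 in both.

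None of the 7 pseudouridine genes passed the rule in either library. DKC1, the synthase guided by box H/ACA RNAs, had 12672, 12564 and 14441, and its change was -0.01 (-0.05 to 0.02) with METTL3 low and 0.19 (0.15 to 0.22) with the inhibitor. PUS7, which acts alone on tRNA and messenger RNA, changed by -0.20 (-0.27 to -0.13) and 0.17 (0.11 to 0.24). TRUB2, a mitochondrial synthase, had the highest value of the 7 in sh-METTL3, at 0.20 (0.11 to 0.29). The mitochondrial RPUSD4 was the only one below 0 in PLK1i, at -0.11 (-0.21 to -0.01).

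Of the remaining enzymes, ADARB1, an adenosine-to-inosine editing enzyme, had normalized counts of 4803, 4030 and 5215. Its change in sh-METTL3 was -0.25 (-0.31 to -0.19), at the edge of the rule and short of it under library totals and upper-quartile scaling, and in PLK1i it was 0.12 (0.06 to 0.18). NAT10, the cytidine acetyltransferase, changed by 0.14 (0.09 to 0.19) in each library. FBL, FTSJ3, EMG1 and DIMT1 modify rRNA as ribosomes are built, and their changes lay between 0.00 and 0.14 in sh-METTL3 and between 0.01 and 0.04 in PLK1i. The exons of LPCAT3 on the opposite strand cover 55.5% of those of EMG1, so its reads depend on how strand was counted, which is not given in the sources used here. The same holds for DIMT1, whose change in sh-METTL3 was the 0.14, with 22.3% covered by KIF2A. It holds for FTSJ3 with 12.6% covered by PSMC5, and for RBM15B of the writer complex with 20.0% covered by DCAF1.

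The m6A genes and the genes of other marks were also set side by side, without a test. In sh-METTL3 the median change was -0.06 over the 23 m6A genes, with or without METTL3, and -0.03 over the 29 others, beside 0.00 over all genes and -0.02 over those at 500 or above. In PLK1i the medians were 0.03 and 0.05, beside 0.00 and 0.01. Below 0 in sh-METTL3 were 17 of 23 and 18 of 29. Beside these stood 7445 of the 14949 genes of the table and 4825 of the 9074 at 500 or above. Above 0 in PLK1i were 13 of 23 and 25 of 29, beside 7560 of 14949 and 4710 of 9074. Under upper-quartile scaling these counts were 16 of 23 and 16 of 29 in sh-METTL3, and 13 of 23 and 23 of 29 in PLK1i. Of the 52 genes, 25 lay within counting error in sh-METTL3 and 24 in PLK1i, beside 6692 and 8085 of all 14949. At 500 or above it was 22 of 49 in each comparison, beside 3152 and 3835 of 9074.

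Several of the genes that moved in sh-METTL3 sit in chromosome regions where other genes moved the same way. For each gene, the median change of its 50 nearest listed neighbours was taken, counting only genes whose mean normalized count reached 50. The 5 genes on chromosome 7, which are CBLL1, IGF2BP3, NSUN5, BUD23 and PUS7, were all below 0 in sh-METTL3 beyond counting error, and the medians of their neighbours were -0.19, -0.31, -0.41, -0.42 and -0.18. NSUN5 and BUD23 lie close together, as do PUS7 and CBLL1, so their neighbours are partly the same and the 5 medians not separate. BUD23 itself, at -0.19, lay above the median of its neighbours. TRMT112, to which BUD23 was set in ratio, lies on chromosome 11 with neighbours at -0.07, so that ratio compares 2 unlike regions. Around NSUN5 (72716513 to 72722823 in GRCh37), 46 of the 50 neighbours were below 0, over 4.23 Mb. Around TRDMT1 (chromosome 10, 17179335 to 17244053) the median was -0.45, with 45 of 50 below 0 over 13.5 Mb. NSUN6 lies in the same region, so its neighbours are partly the same, with a median of -0.43 and 44 of 50 below 0. Its own change was -0.21 (-0.44 to 0.02), within counting error, and 0.22 with that median subtracted. Around METTL4 (chromosome 18, 2537524 to 2571508) it was 0.38, with 2 of 50 below 0, against the rise of METTL4 by 0.40. The neighbours of IGF2BP2 had a median of -0.17 and those of TRMT6 -0.16. By contrast, the medians around METTL3, METTL1, TRMT61A and ADARB1 were 0.01, -0.01, -0.04 and -0.01.

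With the median of the neighbours subtracted, METTL3, TRDMT1 and METTL1 still fell and no gene rose in sh-METTL3, 3 genes in place of 9. Their values were then -1.26, -0.31 and -0.39. The 6 genes that no longer passed were METTL4 at 0.01, NSUN5 at -0.16, IGF2BP2 at -0.15, TRMT6 at -0.16, TRMT61A at -0.22 and ADARB1 at -0.246. TRMT61A and ADARB1 lay close to the threshold before the subtraction, and their neighbours close to 0. In PLK1i the neighbours of the 6 genes that rose or fell had medians of 0.03 for TRDMT1, 0.02 for NSUN3, 0.00 for PCIF1, -0.01 for TRMT61A, 0.04 for NSUN2 and 0.06 for CBLL1. With these subtracted, NSUN2 at 0.24 and CBLL1 at 0.20 no longer passed the rule and FTO at -0.29 did, which left 4 genes lower and 1 higher. The subtraction was not made for all genes, so the counts after it have no share of the table beside them. Whether the neighbours share a cause with these genes was not tested.

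**Figure D4:**
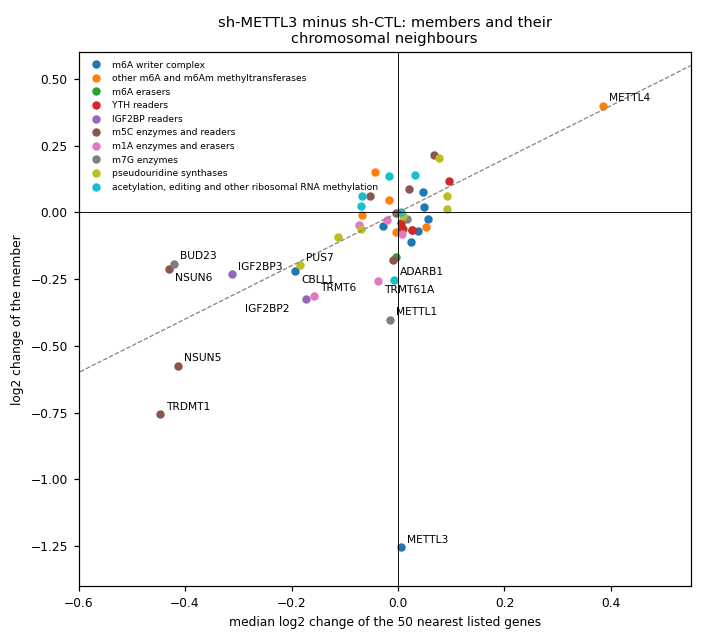
Change of each RNA-modifying gene in sh-METTL3 (y axis, log2) against the median change of its 50 nearest listed genes on the same chromosome (x axis, log2), coloured by role. On the dashed line both are equal: METTL4 lies on it at 0.40, TRDMT1 lies below it at -0.76 with neighbours at -0.45, and METTL3 lies at -1.25 with neighbours at 0.01.

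A wider list of other RNA-modifying and m6A-binding genes had 68 of its 70 symbols in the table. In sh-METTL3, 7 of the 68 fell and 6 rose, against 15.1% of all genes each way, with a median of 0.01, and under upper-quartile scaling 6 fell and 9 rose. The largest rises were TRMT10A, a tRNA guanosine methyltransferase, at 0.50 (0.10 to 0.92) with 79 and 141 reads in sh-CTL and sh-METTL3, RNMT at 0.48 (0.41 to 0.55) and the tRNA thiolation gene CTU1 at 0.48 (0.17 to 0.80). The lowest values were those of TYW1, which acts in wybutosine synthesis on tRNA, at -0.54 (-0.64 to -0.44), of the mitochondrial rRNA methyltransferase MRM2 at -0.47 (-0.55 to -0.39) and of RAMAC at -0.36 (-0.51 to -0.21). TYW1 and MRM2 lie on chromosome 7, where their neighbours had medians of -0.31 and -0.42, and RNMT lies on chromosome 18 beside neighbours at 0.26. In PLK1i, 9 of the 68 rose and none fell, against 9.09% and 10.1% of all genes, with a median of 0.04. Under library totals 8 rose and 1 fell, and under upper-quartile scaling 7 rose and 1 fell. The highest there were the tRNA wobble-base enzyme ALKBH8 at 0.45 (0.30 to 0.61), TRMT44 at 0.39 (0.22 to 0.57) and QTRT2, a subunit of the queuine transferase, at 0.35 (0.27 to 0.43). The lowest were METTL15 at -0.25 (-0.37 to -0.13), LRPPRC at -0.19 (-0.22 to -0.16) and PUS7L at -0.17 (-0.28 to -0.05), each short of the rule, though METTL15 was the gene that passed it under those scalings.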

How the data were processed

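The deposited table gives log2 values per gene and library for RNA sequencing of 3 samples (ISOGEN extraction, TruSeq stranded mRNA kit). The submitters' processing notes name FastQC 0.11.9, STAR 2.7.10, RSEM 1.3.3 and hg19, and the annotation and normalization are not given in the sources used here. The deposited log2 values followed log2 of a scaled count plus 4. With this undone, 1 read was worth 1.17, 0.927 and 0.921 in sh-CTL, sh-METTL3 and PLK1i, and whole reads were recovered, with 100% of values under 2000 reads within 0.1 of an integer (size factors 0.858, 1.08 and 1.09). A filter at a mean of 1 removed no gene. Positions and lengths came from GENCODE 44 on GRCh37 (14858 of 14949 genes matched), promoters from RefSeq. No count test was run, since each group had 1 library. Intervals do not cover variation between cultures or amplification. The scripts used Python 3.11.15, NumPy 2.4.6, pandas 2.3.3 and SciPy 1.17.1, and were tested on simulated data. The genes and lists were chosen with earlier results of these data known. All 52 genes were named, and of the wider list the 3 highest and 3 lowest with a mean of at least 50 in each comparison. A total of 10 alternatives were tried.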

Additional observations from a re-analysis of the deposited data

How the results depend on the processing

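No paired analysis was possible because each group held 1 library, and for the same reason no replicate could be left out. A total of 10 alternatives were tried. In 4 of them little could move: the median-of-ratios factors equal the deposited scaling to 4 digits, and the 3 filter settings only choose which genes are kept. The remaining alternatives (library totals, upper-quartile scaling, 2 pseudocounts, the subtraction of neighbouring genes and means in place of medians) gave 1244 recomputed values, of which 1195 stayed within the counting error of the reported ones or, for counts, within 1.5 times. Most of these values could move little as well. The 2 pseudocounts are small beside the counts of these genes. The size factors from library totals (0.857, 1.07 and 1.09) lay near the deposited ones (0.858, 1.08 and 1.09). Under each of these 3 alternatives 0 of 248 values moved, so the 1195 is mostly no check. None of the genes that rose or fell turned its direction. Of the 49 that moved, 46 came from subtracting the median of the neighbouring genes. Under it the count of genes past 0.25 in sh-METTL3 went from 9 to 3, and the METTL3 change in PLK1i from -0.02 to 0.0653. No count over all genes was made under it. The cause was not tested. The other 3 were under upper-quartile scaling. In PLK1i the split of 3 lower and 3 higher became 4 and 3 under library totals and 4 and 2 under upper-quartile scaling. Depth limits the genes with few reads most, TRDMT1 and METTL1 included, and every difference lacks a measure of variation between cultures.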
